A study of Mus musculus with 8 samples.

Results

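The comparison set late reporter-positive cells against early reporter-negative cells: 2 arrays of GFP+ cells at embryonic day (E) 7.5 against 2 arrays of GFP- cells at E6.5, chosen by their labels alone out of 8 arrays in 4 groups. The embryos of every group were Mesp1-rtTA/Teto-H2B-GFP mice, in which the Mesp1-driven transactivator rtTA switches on a histone H2B-GFP that stays in the nucleus. Cells were dissociated with trypsin, dead cells were excluded with propidium iodide, and 50 living cells per sample were sorted by GFP. Their RNA was amplified over 25 PCR cycles and measured on Affymetrix mouse arrays that carry perfect-match probes alone. The other groups, used here only to place the change between its ends, were GFP+ cells at E6.5 and GFP- cells at E7.5, again with 2 arrays each. The labels call the arrays of a group biological replicates 1 and 2. They do not say whether cells were pooled over embryos or litters, so p-values measure the spread between these arrays. The GFP reports the activity of the Mesp1-driven construct, which need not match Mesp1 expression in each cell, and GFP- marks a sort gate rather than a tissue.

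At E6.5 the mouse embryo is largely epithelial: the epiblast, wrapped in visceral endoderm and topped by extraembryonic ectoderm, has just begun to form the primitive streak. Epiblast cells that enter the streak lose E-cadherin junctions, undergo an epithelial-mesenchymal transition and leave as mesoderm, and Mesp1 is among the first transcription factor genes they switch on. Mesp1-expressing cells contribute to the heart, head mesoderm, vessels and extraembryonic mesoderm. By E7.5 mesodermal wings surround the embryo and the earliest Hox genes and retinoic acid synthesis have begun. The change from E6.5 GFP- to E7.5 GFP+ cells therefore crosses both a sort gate and a day of development. It equals the sum of a first step, E6.5 GFP- to E6.5 GFP+, and a second step, E6.5 GFP+ to E7.5 GFP+.

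Values are log2 expression levels, and a change of 1 is a doubling. Of 11706 genes tested, 56 passed limma at a Benjamini-Hochberg adjusted p under 0.05 (0.478%): 38 were higher in E7.5 GFP+ cells (0.325%) and 18 were lower (0.154%). Without adjustment 959 genes (8.19%) had a limma p under 0.05. The called changes ran from 1.94 to 7.25 in size, with a median of 3.51 among the higher genes and -2.59 among the lower, against -0.02 over all genes. In all 56 the arrays of the groups did not overlap, which also held for 14% of all genes in the higher and 15.5% in the lower direction. Array medians were 4.20 to 4.23 in replicate 1 and 4.54 to 4.59 in replicate 2, so changes within each replicate number are given where a result turns on them. All 56 had the same sign in both numbers, which follows from the lack of overlap. In 25 of them the lower group averaged below 4.38, the median of all deposited values, and the sizes of those changes are uncertain. The calls were sensitive to single arrays. With any 1 of the 8 arrays left out, none of the 18 lower genes passed, and most of the 38 higher genes did not. Aplnr and Hoxb1 were called with each array left out.

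**Figure D1:**
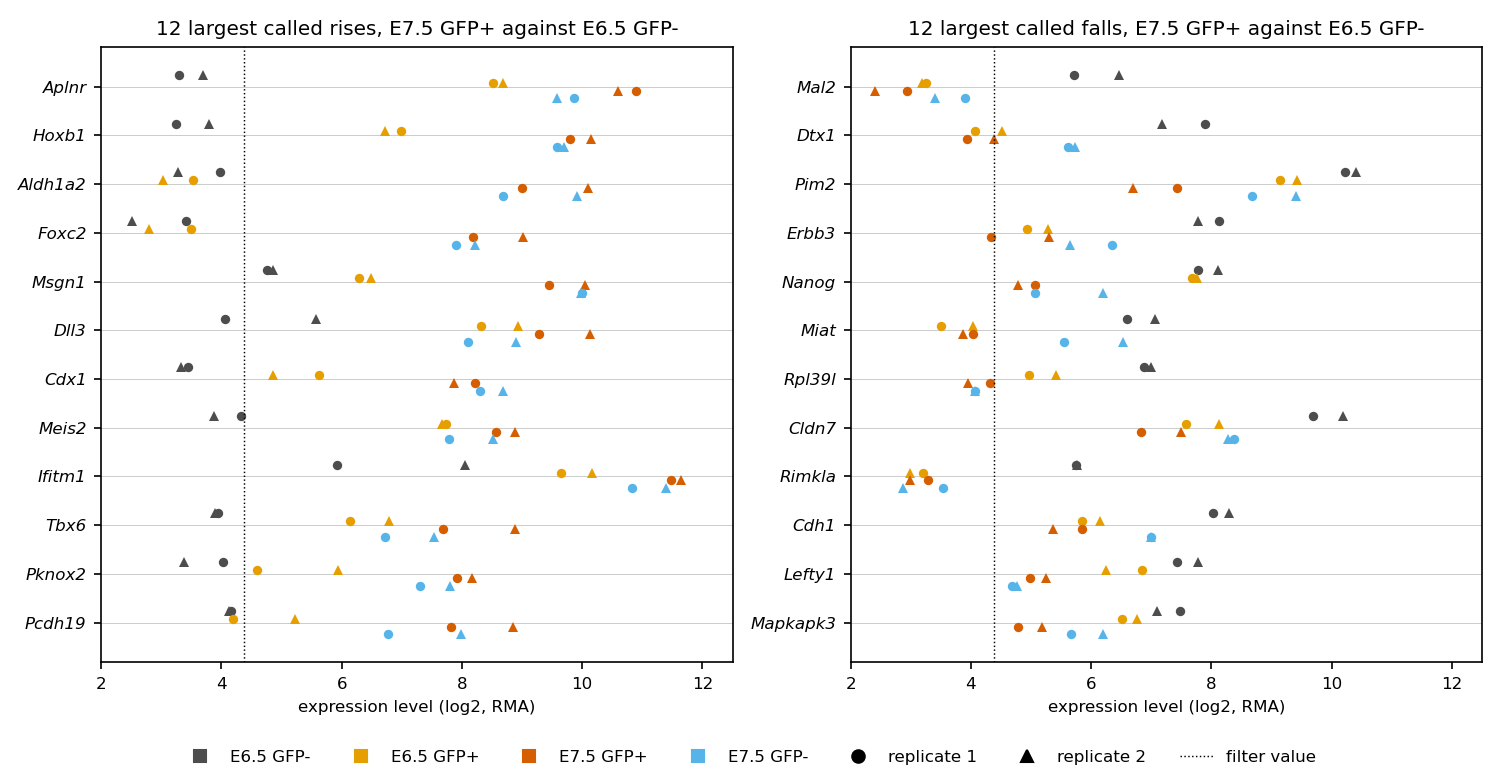
Log2 expression level (x axis) of the 12 called genes with the largest rise (left) and the 12 with the largest fall (right) in each of the 8 arrays; colours are groups, circles and triangles are replicates 1 and 2, and the dotted line marks 4.38. Aplnr runs from 3.29 and 3.69 in E6.5 GFP- cells to 10.89 and 10.60 in E7.5 GFP+ cells, and Nanog stays near its starting level in E6.5 GFP+ cells.

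Aplnr, the receptor of the peptides apelin and Apela in migrating mesoderm, was at 3.29 and 3.69 in E6.5 GFP- cells and at 10.89 and 10.60 in E7.5 GFP+ cells. The rise of 7.25 (SE 0.30, limma adjusted p = 0.000460) was the largest called change. Its starting level lay below 4.38, and 3.75 was the change by the second probe set of the gene. E6.5 GFP+ cells lay between the ends at 8.52 and 8.68. The ligand genes did not share the change: Apela differed by -0.32 and Apln by -0.01, and neither passed.

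Mesp1 itself was at 5.64 and 6.26 in E6.5 GFP- cells, 9.75 and 10.03 in E6.5 GFP+ cells and 8.75 and 8.65 in E7.5 GFP+ cells. Its level was thus highest at the middle point, and E7.5 GFP- cells, at 7.76 and 8.06, were also above the early GFP- cells. Over the whole change Mesp1 rose by 2.74 (SE 0.33, limma adjusted p = 0.0277). Cells were sorted on a Mesp1-driven reporter, so this is a check of the gate and no finding. The paralogue Mesp2, a somite patterning gene, stood at 4.08 and 4.37 at the start, 6.78 and 7.24 in E6.5 GFP+ cells, and 4.81 and 6.53 at the end. Its change of 1.44 did not pass (limma adjusted p = 0.508).

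Of 19 measured genes of the primitive streak and nascent mesoderm, 6 rose and 0 fell, and 10 were higher and 2 lower at an unadjusted p under 0.05. Mesp1, whose reporter set the gate, is included in these counts of higher genes and in the median. The list's median change was 1.44, with 1.74 and 0.41 within replicates 1 and 2. Besides Aplnr and Mesp1 the risers were the T-box gene Tbx6 (4.36, SE 0.49), the paraxial mesoderm regulator Msgn1 (4.94, SE 0.31), the caudal homeobox gene Cdx1 (4.66, SE 0.36) and Sp5 (3.17, SE 0.38), a zinc finger gene switched on by Wnt signals. Msgn1 rose from 4.75 and 4.86 to 9.44 and 10.05, and its groups were far apart relative to the gap within them. Tbx6 and Cdx1 started below 4.38. Eomes, a T-box gene acting upstream of Mesp1, differed by -0.09 (SE 0.53), and Mixl1, a streak homeobox gene, by 2.65 (SE 1.09, limma adjusted p = 0.570). For Mixl1 the change was 5.39 within replicate 1 and -0.09 within replicate 2, and the early GFP- arrays lay far apart (4.5 and 7.90). Fgf8 and Nodal, signals of the streak, were at -1.22 and -1.09 and did not pass, and another probe set of Nodal gave -2.54.

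Paraxial mesoderm, which forms the somites, was the list with the highest median, 3.29 (3.19 and 4.25 within the replicates). Of its 13 measured genes 6 rose, 0 fell and 12 were higher at an unadjusted p under 0.05. Foxc2, a forkhead gene of somites and vessels, went from 3.41 and 2.51 to 8.18 and 9.01, a rise of 5.63 (SE 0.46, limma adjusted p = 0.00757). The Notch ligand genes Dll3 and Dll1 rose by 4.89 (SE 0.59) and 3.29 (SE 0.34), and the protocadherin gene Pcdh19 by 4.19 (SE 0.56). Dll3 spread in the early GFP- arrays, at 4.06 and 5.58, but its groups did not overlap. Foxc1, chosen after its values were seen, was 4.46 higher (SE 0.86) and did not pass (limma adjusted p = 0.105). Meox1, also chosen so, was at 4.93 and 7.93 in late GFP+ cells against 3.51 and 3.68 at the start, and the late arrays lay far apart.

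Hoxb1, the first gene of its cluster to be expressed and a marker of posterior heart progenitors, was at 3.24 and 3.80 in early GFP- cells, 6.98 and 6.72 in early GFP+ cells and 9.80 and 10.14 in late GFP+ cells. Its rise was 6.45 (SE 0.32, limma adjusted p = 0.000792), from a level below 4.38. Hoxb2 rose by 3.51 (SE 0.50, limma adjusted p = 0.0447), and E6.5 GFP+ cells, at 4.22 and 4.86, were still near the early GFP- values of 3.92 and 4.68. Of 12 measured Hox genes these 2 rose and 0 fell, 4 were higher at an unadjusted p under 0.05, and the median was 0.30. Hoxb4, Hoxb5 and Hoxb9, further along the same cluster, differed by 0.02, 0.51 and -0.29. Meis2, a homeobox gene whose protein binds DNA with Hox proteins, rose by 4.62 (SE 0.36), although its other probe set gave 1.64. Pknox2, a homeobox gene of a related family, rose by 4.33 (SE 0.50), with 1.45 from another probe set. The homeobox genes Irx5 (4.01) and Gbx2 (3.44) and the spalt gene Sall3 (1.94), which lie outside the naming rule and are given to complete the called genes, also rose.

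Retinoic acid is made from vitamin A by the enzyme of Aldh1a2, whose onset in mesoderm marks this stage. Aldh1a2 was at 3.97 and 3.28 in early GFP- cells, 3.52 and 3.02 in early GFP+ cells and 9.0 and 10.09 in late GFP+ cells. Both early groups lay below 4.38 and well under the late arrays, and the rise was 5.92 (SE 0.55, limma adjusted p = 0.0159). Crabp1, which encodes a cytoplasmic retinoic acid binding protein, rose by 3.41 (SE 0.44). Of 10 measured genes of the pathway these 2 rose and 0 fell, with 3 higher and 1 lower at an unadjusted p under 0.05 and a median of 0.79. The receptor genes Rara, Rarg and Rxra differed by -0.43, -1.50 and 0.61. The breakdown enzyme gene Cyp26a1 was at 3.63 in early GFP- replicate 1 and between 7.68 and 9.07 in the other 7 arrays, so its difference of 2.31 rested on 1 array.

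The Wnt list, which holds ligands, receptors, inhibitors and targets, had 2 risers and no faller among 22 measured genes (7 higher and 1 lower at an unadjusted p under 0.05, median 0.52), and both risers were targets, Cdx1 and Sp5. Sp5 stood at 4.33 and 5.08 in early GFP- cells, 8.09 and 8.12 in early GFP+ cells and 7.65 and 8.09 in late GFP+ cells, so the GFP+ groups lay close together and both above the start. All 5 measured targets were higher in both replicate numbers (median 1.58), as were 3171 of all 11706 genes. Of these targets Axin2 (1.45) and Lef1 (1.58) did not pass. None of the 6 ligand genes passed by limma, with 1 higher at an unadjusted p under 0.05. Frzb, a secreted Wnt antagonist outside the list, was at 4.5 and 5.94, then 9.82 and 9.54, then 9.04 and 8.67. It rose by 3.63 over the whole change (SE 0.53, limma adjusted p = 0.0447), and 2.16 by its other probe set.

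Promoter windows are shown for 3 risers that hold the letters CTTTGA, the core recognised by the TCF and LEF factors of the Wnt pathway, more than once. They are the 250 bases before the RefSeq start (GRCm38.p6), read 5′ to 3′ on the gene's strand, with CTTTGA or its reverse complement TCAAAG in capitals.
Sp5 (chr2:70474673-70474922, strand +): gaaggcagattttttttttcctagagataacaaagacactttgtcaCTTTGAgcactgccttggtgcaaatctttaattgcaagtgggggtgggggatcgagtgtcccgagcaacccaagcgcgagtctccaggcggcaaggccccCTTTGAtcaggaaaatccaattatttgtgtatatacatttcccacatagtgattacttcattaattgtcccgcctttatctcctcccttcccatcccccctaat
Msgn1 (chr12:11208949-11209198, strand -): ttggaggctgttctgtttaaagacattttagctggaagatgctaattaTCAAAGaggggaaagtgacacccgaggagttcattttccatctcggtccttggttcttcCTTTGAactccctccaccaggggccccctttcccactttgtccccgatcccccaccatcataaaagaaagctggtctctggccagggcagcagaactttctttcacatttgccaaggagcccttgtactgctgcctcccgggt
Mesp1 (chr7:79793591-79793840, strand -): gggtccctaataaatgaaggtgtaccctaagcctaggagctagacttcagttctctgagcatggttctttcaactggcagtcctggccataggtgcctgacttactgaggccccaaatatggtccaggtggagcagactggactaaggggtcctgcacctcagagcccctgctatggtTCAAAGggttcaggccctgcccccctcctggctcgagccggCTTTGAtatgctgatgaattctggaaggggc
Either strand of CTTTGA occurred in 13.8% of all 32851 promoters in the table, in 7 of 24 promoters of the called higher genes (29.2%) and in 1 of 16 of the called lower genes (6.25%). The 7 belonged to Frzb, Ifitm1, Klhl6, Meis2, Mesp1, Msgn1 and Sp5. The motif was chosen after the values were seen, 23 higher and 13 lower genes had an entry, and a match is a description of letters and not of binding.

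Among other signals, Bmp7, a BMP ligand gene, rose by 3.72 (SE 0.45, limma adjusted p = 0.0278), from 3.76 and 4.81 to 7.59 and 8.41. It was the only gene of 18 in the BMP list that passed in either direction, where 6 were higher and 2 lower at an unadjusted p under 0.05 (median 0.64). The ligand genes Bmp4 and Bmp5 were at 1.73 and 1.24 and the antagonist gene Nog at 2.44, and none of these passed. Within the FGF list of 20, Fgfr2, a receptor gene, was called higher at 1.96 (SE 0.28, limma adjusted p = 0.0447). A further probe set gave 0.28, and no other FGF gene passed (6 higher and 5 lower at an unadjusted p under 0.05, median -0.40). Fgfr2 also marks extraembryonic ectoderm, where it was the only called member of 13. In the Nodal list of 12, Lefty1, a secreted Nodal inhibitor, fell by 2.47 (SE 0.32, limma adjusted p = 0.0364), from 7.42 and 7.77 to 4.99 and 5.25. It was the only called member (3 higher and 2 lower at an unadjusted p under 0.05, median 0.27), and its paralogue Lefty2 was 2.06 higher without passing. Lefty1 was also called lower in late than in early GFP- cells, at 4.69 and 4.77 (-2.86, limma adjusted p = 0.047).

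In the Notch list of 15, the ligand genes Dll1 and Dll3 rose and Dtx1, a cytoplasmic regulator of Notch, fell by 3.37 (SE 0.36, limma adjusted p = 0.0271). Dtx1 was at 7.89 and 7.17 in early GFP- cells, 4.07 and 4.51 in early GFP+ cells and 3.94 and 4.38 in late GFP+ cells, the GFP+ means lying below 4.38. The list's median was 0.51, and 6 were higher and 2 lower at an unadjusted p under 0.05. The target genes Hes1, Hey1 and Nrarp differed by -0.38, 0.51 and 0.13 and did not pass.

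The shift from epithelial to mesenchymal genes was visible on both sides. Against early GFP- cells, late GFP- cells also had list medians of -0.64 for epithelial and 1.88 for mesenchymal genes. Cdh1, which encodes E-cadherin, was at 8.02 and 8.29 in early GFP- cells, 5.84 and 6.14 in early GFP+ cells and 5.84 and 5.36 in late GFP+ cells. It fell by 2.56 (SE 0.31, limma adjusted p = 0.0277). Cdh2, which encodes N-cadherin, rose by 3.08 (SE 0.43, limma adjusted p = 0.0447), from 5.68 and 6.60 to 9.30 and 9.13, and Snai1, a repressor of Cdh1, rose by 2.44 (SE 0.34, limma adjusted p = 0.0447), from 7.54 and 8.12 to 10.09 and 10.46. The early and late groups of these 3 genes did not overlap.

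Of 16 measured mesenchymal genes 3 rose and 0 fell, 11 were higher at an unadjusted p under 0.05, and the median was 1.72. All 16 were higher in both replicate numbers, as were 3171 of all 11706 genes. They also did not overlap between the groups, where 14% of all genes were higher without overlap. Sparc differed by only 0.75 and, after rounding, 0.00 within replicates 1 and 2, and Zeb1, Cdh11, Itga5 and Prrx1 started below 4.38. The third riser was Fn1, the gene of the matrix protein fibronectin, which went from 7.70 and 7.5 to 11.41 and 11.18 (3.69, SE 0.28, limma adjusted p = 0.00571). Of 21 epithelial genes 0 rose and 3 fell, with 1 higher and 12 lower at an unadjusted p under 0.05 and a median of -1.41. The 3 were Cdh1, the tight junction gene Cldn7 (-2.78, SE 0.37) and Rab25 (-2.24, SE 0.30), a small GTPase gene of epithelial membrane traffic. The loss did not cover the whole list. The keratin genes Krt8 and Krt18 differed by 0.73 and -0.05, and neither passed. The desmosome gene Dsp differed by 3.61 within replicate 1 and by -0.19 within replicate 2 and did not pass. Mal2 (-3.42, SE 0.38) and Erbb3 (-3.13, SE 0.43), an apical transport gene and a receptor gene of the EGF receptor family, also fell, Mal2 by more than any other called gene and to a level below 4.38.

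For the epithelial side, windows of the same kind are shown for both fallers of the epithelial list that have an entry. Capitals mark CAGGTG or its reverse complement CACCTG, the E-box letters bound by Snail repressors. The Cldn7 window is 1 of its 2 listed promoters.
Rab25 (chr3:88548280-88548529, strand -): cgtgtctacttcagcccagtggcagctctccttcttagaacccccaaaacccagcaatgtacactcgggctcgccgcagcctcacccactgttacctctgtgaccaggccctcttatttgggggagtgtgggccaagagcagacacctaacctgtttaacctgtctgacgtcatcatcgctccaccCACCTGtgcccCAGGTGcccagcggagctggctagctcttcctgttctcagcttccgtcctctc
Cldn7 (chr11:69965171-69965420, strand +): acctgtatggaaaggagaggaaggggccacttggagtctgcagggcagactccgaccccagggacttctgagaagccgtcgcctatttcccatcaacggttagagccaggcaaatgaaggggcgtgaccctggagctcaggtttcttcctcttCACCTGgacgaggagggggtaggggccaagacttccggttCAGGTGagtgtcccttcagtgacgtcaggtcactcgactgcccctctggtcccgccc
Either strand of CAGGTG occurred in 17.2% of all promoters, in 8 of 16 promoters of the called lower genes (50%) and in 7 of 24 of the called higher genes (29.2%), the Mesp1 and Snai1 windows included. The lower genes with it were Cldn7, Dnmt3b, Dtx3l, Nanog, Pim2, Ptpn3 and Rab25. The letters of this motif and of CTTTGA cannot overlap, it too was chosen after the values were seen, and whether the factor binds there was not tested.

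Of 14 matrix genes 2 rose and 0 fell, 7 were higher at an unadjusted p under 0.05 and the median was 1.51. The second riser was Fbn2, which encodes a fibrillin of elastic microfibrils, from 4.45 and 5.62 to 8.63 and 8.61 (3.58, SE 0.42). Lama1, a laminin gene, was 3.02 higher without passing. Of 23 migration and guidance genes only Aplnr was called in either direction, while 10 were higher and 4 lower at an unadjusted p under 0.05 (median 1.20). The guidance receptor gene Epha4 was 3.37 higher (SE 0.73, limma adjusted p = 0.147). The chemokine gene Cxcl12, chosen after its values were seen, was 2.78 lower at 7.98 and 8.32 against 4.63 and 6.11 (limma adjusted p = 0.0819). Called risers outside the lists included Dlc1 (2.92, and 0.74 by another probe set) and Sh3pxd2a (2.25, and 0.25 by another probe set), a scaffold of invasive cell protrusions.

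Genes of the epiblast and of pluripotency held more fallers than any other list. Of 15 measured, 4 fell and 0 rose, 12 were lower at an unadjusted p under 0.05, and the median was -2.17 (-1.94 and -2.58 within the replicates). Nanog, a core pluripotency factor gene, was at 7.78 and 8.11 in early GFP- cells and 7.67 and 7.76 in early GFP+ cells, and at 5.07 and 4.78 in late GFP+ cells. It fell by 3.02 (SE 0.41, limma adjusted p = 0.0406). The kinase gene Pim2 fell by 3.26 (SE 0.39), Foxd3 by 2.02 (SE 0.29) and the de novo DNA methyltransferase gene Dnmt3b by 1.98 (SE 0.28). Foxd3 ended below 4.38. Pou5f1, which encodes Oct4, changed little for this list: it was at 11.12 and 10.98 at the start and 10.40 and 9.98 at the end, a difference of -0.86 that did not pass (limma adjusted p = 0.483). The 2 largest differences of the list did not pass without a block for the replicate number. Utf1 averaged 10.97 against 5.93 (-5.04, SE 0.78, limma adjusted p = 0.0560), and Slc7a3 was at 10.36 and 10.24 against 5.91 and 5.89 (-4.40, SE 0.68, limma adjusted p = 0.0545). Both were singled out after their values were seen. In the DNA methylation list of 6, Dnmt3b was the only call (2 lower at an unadjusted p under 0.05, median -0.41), and Dnmt3a was at -1.36.

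**Figure D2:**
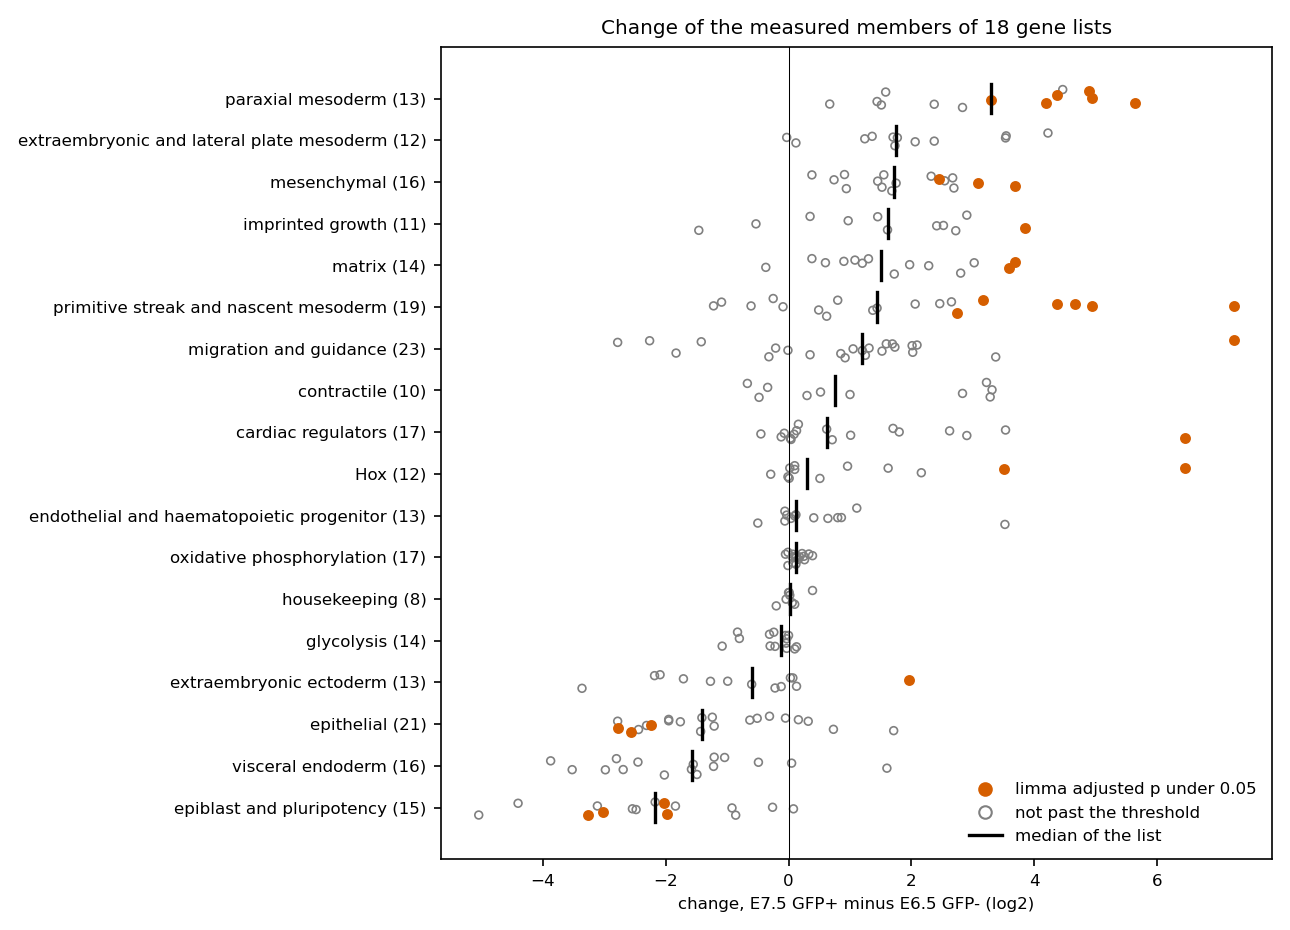
Change from E6.5 GFP- to E7.5 GFP+ cells (x axis, log2) of each measured member of 18 of the 31 gene lists, with the number measured in parentheses; filled points passed limma at an adjusted p under 0.05, open points did not, and bars are list medians. Paraxial mesoderm has the highest median (3.29) and epiblast and pluripotency the lowest (-2.17), while housekeeping genes lie around 0.02.

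The early GFP- cells also held transcripts of tissues around the epiblast. The 16 measured visceral endoderm markers averaged 6.11 and 7.59 in early GFP- arrays, 4.36 and 4.75 in early GFP+, 5.2 and 5.09 in late GFP+ and 5.01 and 6.16 in late GFP- arrays. Their median change was -1.57 (-0.89 and -2.39 within the replicates), 8 were lower and 0 higher at an unadjusted p under 0.05, and by limma 0 passed. Apob, Apoa1, Ttr and Cubn, which encode lipoproteins, a transport protein and an uptake receptor of that tissue, differed by -3.52 (SE 1.18), -2.98 (SE 0.53), -2.69 (SE 0.72) and -2.80 (SE 0.65). Spink1, a protease inhibitor gene, differed by -0.78 within replicate 1 and by -6.97 within replicate 2, where the late GFP+ array was at 3.49 against 7.39 in replicate 1. Apoa1, Ttr and Cubn were chosen after their values were seen. The 13 extraembryonic ectoderm markers averaged 5.73 and 6.27 in early GFP- and 5.10 and 5.32 in late GFP+ arrays. Their median change was -0.60, with 1 higher and 3 lower at an unadjusted p under 0.05. Late GFP- arrays averaged 6.95 and 5.63 (median 0.41 against early GFP- cells), so these transcripts were not limited to the early cells. Rhox5 was 3.36 lower in late GFP+ cells without passing. It was at 8.42 and 9.98 in early GFP- and 9.77 and 7.12 in late GFP- arrays. The part of these tissues in the falls of the epithelial list was not tested. In bulk samples of this kind fewer cells of a type and less RNA per cell cannot be told apart.

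Other cell types gave few calls. Of 8 definitive endoderm and node genes 0 passed by limma (1 higher and 1 lower at an unadjusted p under 0.05, median 0.25), of 13 anterior epiblast and neural genes 0 passed (4 lower, median -0.30), and of 6 surface ectoderm genes 0 passed (0 at an unadjusted p under 0.05, median 0.03). Ifitm1, an interferon-inducible membrane protein gene found in nascent mesoderm and early germ cells, was the only call of 4 measured germ cell genes (median 0.49, 2 higher at an unadjusted p under 0.05). It rose by 4.57 (SE 0.65, limma adjusted p = 0.0447), from 5.92 and 8.05 to 11.47 and 11.65.

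Heart genes gave 1 call. Of 17 cardiac regulators only Hoxb1 was called, with 6 higher and 0 lower at an unadjusted p under 0.05 and a median of 0.62. The core factor genes Nkx2-5, Isl1 and Tbx5 differed by 0.04 (SE 0.58), -0.07 (SE 0.42) and 0.09 (SE 0.32), and their groups overlapped. Gata4, Gata6 and Hand1, which act in early cardiac and extraembryonic mesoderm, were 2.62, 2.90 and 3.53 higher and did not pass. Within replicates 1 and 2 the differences were 4.25 and 1.00 for Gata4, 4.68 and 1.13 for Gata6, and 4.93 and 2.13 for Hand1. The early GFP- arrays were far apart for Gata4 (4.45 and 7.46) and Gata6 (4.64 and 7.80), both of which visceral endoderm also expresses. Of 10 contractile genes 0 passed by limma, with 4 higher at an unadjusted p under 0.05 and a median of 0.76. Actc1, the gene of cardiac actin, was at 3.32 and 4.21 against 6.60 and 7.51 (3.28, SE 0.72, limma adjusted p = 0.148), Tnni1 was 3.31 higher, and neither set of arrays overlapped.

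Lateral and extraembryonic mesoderm, from which the allantois, amnion and yolk sac mesoderm form, had a median of 1.75 over 12 genes. By limma 0 passed and 8 were higher at an unadjusted p under 0.05. Foxf1, a forkhead gene of lateral plate, was 4.22 higher (SE 1.08, limma adjusted p = 0.225), at 3.88 and 4.95 against 8.50 and 8.77. Of 13 endothelial and blood progenitor genes 0 passed by limma, 1 was higher at an unadjusted p under 0.05 and the median was 0.12. Kdr, a VEGF receptor gene, was 3.52 higher (SE 0.80, limma adjusted p = 0.161), with 9.19 and 7.27 in late GFP+ arrays. The 6 erythroid genes had a median of 0.21 with 0 calls by limma and 0 at an unadjusted p under 0.05. Embryonic globin Hbb-bh1 was at 3.19 and 3.16 in early GFP- cells, 3.11 and 3.47 in late GFP+ cells and 5.45 and 5.99 in late GFP- cells.

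Imprinted growth genes had a median of 1.61 over 11 genes, 1 of which rose and 0 fell (7 higher and 1 lower at an unadjusted p under 0.05). Phlda2, a maternally expressed growth restrictor, rose by 3.85 (SE 0.48, limma adjusted p = 0.0287), from 6.77 and 6.94 to 10.72 and 10.69. Igf2 was 1.45 higher without passing (limma adjusted p = 0.430), at 8.57 and 10.01 against 11.08 and 10.41. General metabolism moved little. Glycolysis (14 genes, median -0.13, 0 higher and 1 lower at an unadjusted p under 0.05), oxidative phosphorylation (17, median 0.12, 0 at that p) and housekeeping genes (8, median 0.02, 0 at that p) had 0 calls by limma. Of 17 cell cycle genes 0 passed by limma, the median was -0.10, and the 2 at an unadjusted p under 0.05 were Ccnd2 (2.51, limma adjusted p = 0.0540) and the inhibitor gene Cdkn1c (2.52, limma adjusted p = 0.0883).

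Each change was then divided at E6.5 GFP+ cells. Over all genes 8 were higher (0.0683%) and 1 lower (0.00854%) by limma in the first step, and 3 were higher (0.0256%) and 0 lower in the second, where 451 genes had an unadjusted p under 0.05 in either direction. Those 451 are under a share of 0.05 of all 11706 genes, the share that threshold would pass on average if no gene differed. The steps and the whole change share arrays, so the split is a description. Among the 38 risers the first step made up a median of 55% of the rise, over 75% in 13 genes and under 25% in 9. Among the 18 fallers it made up a median of 79.7% of the fall, over 75% in 10 and under 25% in 1. The low end of the change averaged below 4.38 in 17 risers and 8 fallers, and the shares of those genes are uncertain.

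For some called risers the first step held as much as the whole change or more, and no second-step value given for them passed. Snai1 rose by 3.13 in the first step (limma adjusted p = 0.0495) and was at -0.69 in the second, and Dlc1 rose by 3.57 (limma adjusted p = 0.0209) and was then at -0.65. Frzb was at 4.46 and -0.82, where neither step passed (limma adjusted p = 0.0572 for the first). Among the fallers Dtx1 fell by 3.24 in the first step and was at -0.13 in the second. Rimkla, Miat and Foxd3 were at -2.65, -3.06 and -1.91 in the first step and at 0.03, 0.18 and -0.11 in the second, without passing in either. In E6.5 GFP+ cells Dtx1, Rimkla, Miat and Foxd3 already averaged 4.29, 3.10, 3.77 and 3.94, all below 4.38. A further fall from there would be hard to register, so the sizes of these second steps are uncertain.

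Late risers were near their starting level in early GFP+ cells. Aldh1a2 was at -0.35 in the first step and rose by 6.28 in the second (limma adjusted p = 0.0409), and Foxc2 was at 0.18 and rose by 5.45 (limma adjusted p = 0.0409). Msgn1, the last of the 3 called in the second step, rose by 3.36 after a first step of 1.58. Fgfr2 and Lhfp, a gene of the lipoma HMGIC fusion partner family, were at -0.35 and 0.18, then 2.32 and 3.33, and neither step passed. Late fallers were Nanog (-0.23, then -2.79), Mapkapk3 (-0.65, then -1.66) and Pim2 (-1.03, then -2.23), none of them past the threshold in a single step. Intermediate genes such as Hoxb1 (3.33, then 3.12) divided their rise about evenly.

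**Figure D3:**
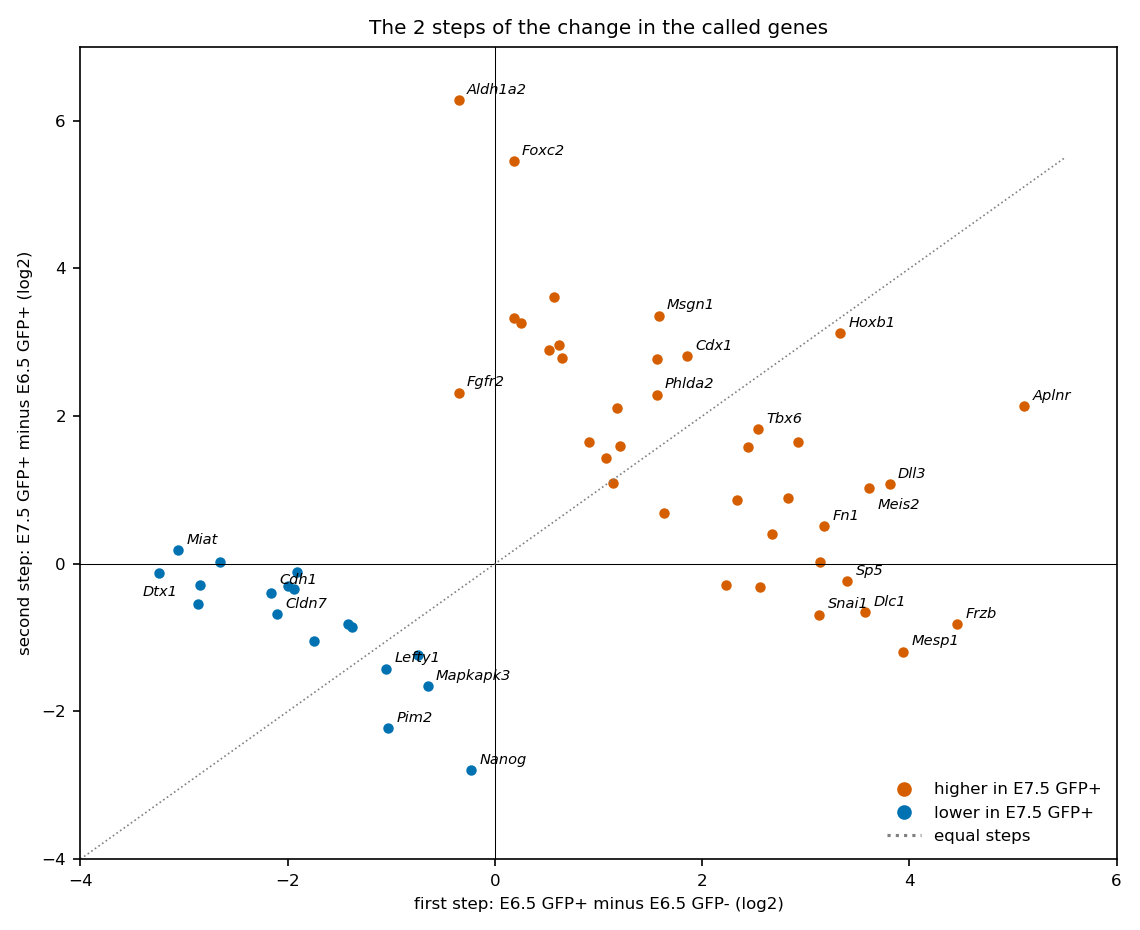
First step (x axis, E6.5 GFP+ minus E6.5 GFP-, log2) against second step (y axis, E7.5 GFP+ minus E6.5 GFP+, log2) for the 56 called genes, orange where higher and blue where lower in E7.5 GFP+ cells; the dotted line marks equal steps. Aldh1a2 (-0.35, 6.28) and Foxc2 (0.18, 5.45) lie at the top left, Mesp1 (3.94, -1.19) at the lower right and Nanog (-0.23, -2.79) at the bottom.

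Comparing only the ends hides genes whose level in E6.5 GFP+ cells lay away from both ends. The groups are separate cells, and the first step compares fractions of the same day, so no course over time was followed. By a rule on size, 18 genes changed by over 2 in the first step, in 1 direction within both replicate numbers, and by under 50% of that over the whole change. They carry no test. Evx1, a streak homeobox gene, went from 6.37 and 6.98 to 9.19 and 9.01 and then to 8.08 and 6.88, and Nfatc1 from 3.67 and 4.49 to 7.02 and 6.22 and then to 5.19 and 4.64. Others dipped. In the same order of groups the keratin gene Krt18 was at 8.70 and 9.65, then 6.08 and 6.78, then 9.29 and 8.95. The Wnt antagonist gene Sfrp1 was at 7.03 and 8.43, then 5.04 and 4.86, then 8.45 and 8.67. Dab2, an endocytic adaptor gene of visceral endoderm, and Lgmn, a lysosomal protease gene, were at -3.34 and -2.69 in the first step and 1.79 and 1.70 in the second. Cer1, a secreted Nodal and BMP inhibitor that lies outside this rule, was at 5.49 and 9.78, then 4.56 and 4.0, then 9.67 and 9.86. For Cer1 the early GFP- arrays disagreed, and the late GFP+ array of replicate 2 stood 0.07 above its early counterpart while that of replicate 1 stood 4.18 above.

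**Figure D4:**
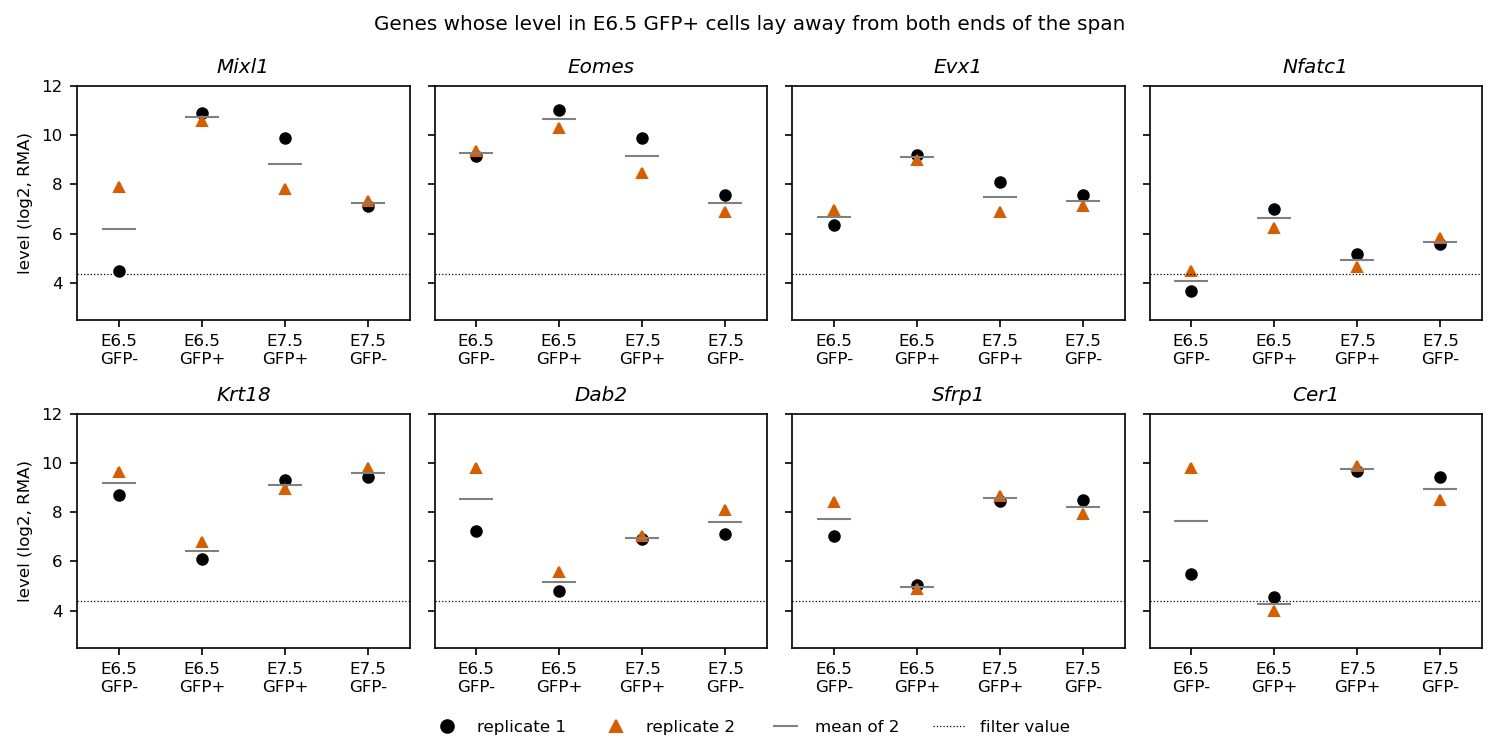
Log2 expression level (y axis) of 8 genes in the 4 groups (x axis), with circles for replicate 1, triangles for replicate 2, bars for the mean of 2 arrays and a dotted line at 4.38; Mixl1, Eomes and Cer1 lie outside the rule on size. Mixl1, Eomes, Evx1 and Nfatc1 peak in E6.5 GFP+ cells and Krt18, Dab2, Sfrp1 and Cer1 are lowest there, with early GFP- arrays of Mixl1 (4.5 and 7.90) and Cer1 (5.49 and 9.78) far apart.

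The change contains a day of development as well as the sort, and late GFP- cells show the values of the other fraction at the same day. Between the fractions at E7.5 limma called 0 genes (0%), with 282 at an unadjusted p under 0.05. Those 282 are under a share of 0.05 of all 11706 genes, the share that threshold would pass on average if no gene differed. Against E6.5 GFP- cells, late GFP- cells had 9 genes higher (0.0769%) and 2 lower (0.0171%). The 38 risers had a median of 2.94 in late GFP- cells against the same early arrays, beside 3.51 in late GFP+ cells, and the 18 fallers -1.86 beside -2.59. These comparisons share the early arrays and are set side by side only. Both sets of genes were also selected by their change in late GFP+ cells, which favours the larger medians there. Late GFP- cells had list medians of 1.88 for mesenchymal, 1.77 for matrix, 2.38 for lateral and extraembryonic mesoderm and 1.98 for imprinted growth genes. In late GFP+ cells these medians were 1.72, 1.51, 1.75 and 1.61. Other lists went the other way, such as paraxial mesoderm (1.84 beside 3.29) and epiblast genes (-1.26 beside -2.17). Hoxb1 was at 9.58 and 9.69 in late GFP- and 9.80 and 10.14 in late GFP+ cells, Aldh1a2 at 8.69 and 9.91 beside 9.0 and 10.09, and Msgn1 at 10.00 and 9.98 beside 9.44 and 10.05. Late GFP+ and GFP- arrays overlapped for Aldh1a2 and Msgn1.

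The differences between the late fractions were larger, though none passed limma, for a few of the genes. Klhl6, at 7.52 and 6.88 in late GFP+ and 5.38 and 5.48 in late GFP- cells, differed by 1.77 (SE 0.36). Dll1 differed by 1.45 (SE 0.34), Frzb by 1.51 (SE 0.53) and Bace2 by 1.5 (SE 0.32). On the falling side Miat, a long noncoding RNA, was at 4.04 and 3.87 in late GFP+ and 5.55 and 6.53 in late GFP- cells (-2.08, SE 0.41), Pim2 differed by -1.99 (SE 0.39) and Cdh1 by -1.39 (SE 0.31). These genes were singled out after their values were seen.

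The remaining called genes complete the set and lie outside the naming rule, except Rpl39l and Mapkapk3. Risers were Cited2 (2.79), Dusp9 (2.24), Prtg (2.32), Rimbp2 (3.20), Klhl6 (3.17), Bace2 (2.55) and Pdlim4 (2.5). Fallers were the ribosomal protein paralogue Rpl39l (-2.80), Mapkapk3 (-2.30), Ptpn3 (-2.30), Dtx3l (-2.28) and Ahr (-2.23), the gene of the aryl hydrocarbon receptor. Another probe set of Mapkapk3 gave -0.63. Rpl39l is a close copy of another ribosomal protein gene, so its level is uncertain. Rpl39l, Dtx3l and Ahr ended below 4.38, and Rimbp2, Klhl6 and Bace2 started below it.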

How the data were processed

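The deposited values are log2 expression levels of probe sets, which the authors summarised by RMA per the submitters' processing notes. Neither a version nor a genome build is given in the sources used here. Of 45141 probe sets, 28898 had 1 gene symbol. Probe sets with at least 2 of 8 arrays above 4.38, the median of all values, were kept, and the one with the highest mean stood for its gene (11706 genes). Limma 3.58.1 in R 4.3.3 was fitted to the 8 arrays as 4 group means without a block (4 residual degrees of freedom, prior 3.21), two-sided, with Benjamini-Hochberg adjustment. The number of arrays limits the precision. The script was tested on simulated data. Promoters came from RefSeq (GRCm38.p6), and 11645 genes matched by Entrez identifier.

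The comparison, the gene lists and the naming rule were chosen with earlier results of these data known. The rule named the 12 largest called rises and falls, called or largest members of each list, a set of genes fixed by name, the earliest and latest risers and fallers, and 6 genes with a large first step and a much smaller whole change. Other list members were named after their values were seen. Both contrasts with E7.5 GFP- cells were added after seeing the data. Ordered array values lay a mean of 0.0291 apart among replicate 1 arrays, 0.0248 among replicate 2 arrays and 0.229 across the numbers, as separate normalization would leave them, though the labels do not mention it. Alternatives are given in the closing section.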

Additional observations from a re-analysis of the deposited data

How the results depend on the processing

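With the replicate number as a block, 98 genes were higher and 76 lower over the whole change, and all 56 called genes stayed among them. In the epiblast list it called 9 lower genes in place of 4, and it called Utf1 (limma adjusted p = 0.0214), Slc7a3 (0.0449), Foxc1 (0.0209), Actc1 (0.0209) and Epha4 (0.0322), among others. The block gave 18 higher and 12 lower in the first step, and 29 higher and 10 lower in late against early GFP- cells. Arrays of 1 number deviated together (r from 0.401 to 0.532 across genes, over 6 group pairs), but with 2 numbers and no label on pairing they are not taken as pairs. A fit on only the 4 arrays of a contrast called 8 higher and 1 lower in the whole change, the 1 lower gene being none of the 18, 0 and 0 in the first step, 0 higher in the second, and 4 and 0 in GFP- cells. An intensity trend gave 65 higher and 40 lower, 16 and 9 in the first step, and 29 and 5 in GFP- cells. Quantile normalization over all 8 arrays gave 28 lower, 7 lower in the first step, and 19 higher and 7 lower in GFP- cells. Without a filter, 0 were lower in the first step and 0 higher in the second, and the mean of all probe sets gave 14 higher in GFP- cells. With 1 array left out, counts ran from 2 to 13 higher and 0 to 3 lower, from 0 to 1 higher and 0 to 0 lower in the first step, from 0 to 3 higher in the second, and from 3 to 10 higher and 0 to 1 lower in GFP- cells. Counts not given here stayed within 1.5 times, and between the late fractions every setting called 0. All 56 genes kept their direction in every setting, and 0 moved by over 1.5 times with an array left out. With an array left out the direction was fixed in advance, since the groups of these genes did not overlap. The block, the trend and the fit on 4 arrays leave the difference of the group means as it was. None of the 18 lower genes passed with any array left out. In all 7 settings that keep every array of a contrast Aldh1a2, Aplnr, Cdx1, Foxc2, Hoxb1, Msgn1 and Phlda2 were called. Of 1524 values of the 90 named genes, 42 of them called, 25 changed sign, all of them in uncalled genes. The causes were not tested. With 2 arrays a group and no background measure, small changes and changes from levels below 4.38 are the least certain.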
